A study of Mus musculus with 41 samples.

Results

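The proteasome subunit genes of sorted splenic B cells are described here: every gene in the deposited count table whose symbol is Psm, a letter from a to g and a number, without pseudogenes. The rule uses names and no measured value. It found 48 of 50763 genes, of which 47 had enough reads to be tested. The remaining member, Psmb11, encodes the catalytic subunit of the thymus proteasome. It had a mean of 0.0306 TPM (a level per length of transcript, as a rate of the library's total) over the 40 libraries used.

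The proteasome is the chamber in which cells cut up proteins that carry ubiquitin. Its core is a stack of rings: outer alpha rings that gate the entrance, and inner beta rings in which Psmb5, Psmb6 and Psmb7 cut. A regulatory particle caps the core, with a base of ATPases that unfold the substrate and a lid that removes ubiquitin. Lymphoid cells and cells exposed to interferon gamma replace the constitutive cutting subunits with Psmb8 (for Psmb5), Psmb9 (for Psmb6) and Psmb10 (for Psmb7), which form the immunoproteasome. The immunoproteasome and the activator made of Psme1 and Psme2 are known for making peptides for MHC class I.

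The study sequenced polyadenylated RNA of 6 splenic B cell subsets from mice of 3 to 5 months. Follicular cells were sorted as CD21+CD23+, MarginalZone cells as CD21+CD23-, Plasma cells as B220+CD138+, Immature cells as B220+CD93+CD138- and germinal center (GC) cells as GL7+FAS+. The labels give no gate for the sixth subset, ABC. Each was taken from wild-type mice (wt) and from the genotype called 1Mek2, which the labels give as Mek1 flox/flox, Mek2+/- and Tg+/Vav1-iCre. The genotype comparison asks how each subset differs when Mek1 is floxed and only 1 Mek2 allele is left. Vav1-iCre is active in blood cells in general, not in B cells alone. There were 3 wt and 3 1Mek2 libraries of each subset except GC and Follicular, which had 4 and 4, and the 40 libraries came from 16 animals by the numbers in the library names. The Immature library whose name reads Mek1ff, labelled 1Mek2, was left out. The GC wt replicate 4, whose name also reads Mek1ff but which is labelled wt, was kept. Both names carry the same animal number, 565, so the genotype labels of this animal conflict.

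The genotype was checked on its target genes first. Map2k1, the gene of Mek1, differed by -0.32 ± 0.18 on the log2 scale (standard error, SE) averaged over the subsets (limma-voom adjusted p = 0.34), and by -1.97 ± 0.81 in ABC. Map2k2, the gene of Mek2, was higher in the libraries labelled 1Mek2, by 1.10 ± 0.30 (adjusted p = 0.0182). Reads over the whole gene also cover what lies outside any deleted exon, and why Map2k2 was higher was not tested. Neither gene was called lower on average, and the genotype is therefore written as a label.

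Promoters are shown for 4 genes or gene pairs on which the results turn, read 5′ to 3′ toward the gene from RefSeq's gene starts on GRCm38.p6. They are Psmb8, the most abundant member, its constitutive counterpart Psmb5, Psmd4, and the stretch between Psmb9 and the peptide transporter Tap1, which start back to back. Capitals mark any of 7 short motifs found on either strand.
Psmb8, chr17:34197945-34198194, plus strand: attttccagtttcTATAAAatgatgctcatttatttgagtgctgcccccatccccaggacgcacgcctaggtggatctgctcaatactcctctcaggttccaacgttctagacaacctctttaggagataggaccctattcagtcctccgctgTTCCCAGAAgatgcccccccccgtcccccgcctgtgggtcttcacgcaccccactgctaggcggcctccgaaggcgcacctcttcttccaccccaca
Psmb5, chr14:54617996-54618245, minus strand: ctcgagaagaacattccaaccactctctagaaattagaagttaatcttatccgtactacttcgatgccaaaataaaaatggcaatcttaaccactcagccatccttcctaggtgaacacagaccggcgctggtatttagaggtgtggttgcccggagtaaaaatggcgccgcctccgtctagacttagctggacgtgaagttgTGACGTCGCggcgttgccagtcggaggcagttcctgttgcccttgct
Psmd4, chr3:95042615-95042864, minus strand: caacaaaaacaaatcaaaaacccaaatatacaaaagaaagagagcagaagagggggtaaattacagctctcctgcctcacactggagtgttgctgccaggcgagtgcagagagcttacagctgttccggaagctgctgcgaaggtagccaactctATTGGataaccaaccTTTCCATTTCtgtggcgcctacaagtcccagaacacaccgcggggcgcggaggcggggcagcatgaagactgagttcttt
Psmb9-Tap1, chr17:34187331-34187555, minus strand, toward Psmb9: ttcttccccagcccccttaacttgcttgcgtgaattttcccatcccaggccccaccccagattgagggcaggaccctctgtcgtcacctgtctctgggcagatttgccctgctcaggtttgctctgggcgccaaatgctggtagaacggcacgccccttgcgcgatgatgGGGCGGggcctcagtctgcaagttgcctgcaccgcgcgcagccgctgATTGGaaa
Psmb8 holds TATAAA 237 bases and a GAS-type match (TTCNNNGAA) 97 bases before its start. Psmb5 has an ARE-type match (TGACNNNGC) at 47 bases. Psmd4 has CCAAT (as ATTGG on the strand shown) at 95 bases and an IRF-type match (GAAA, any 2 bases and GAAA again, on the other strand) at 80 bases. The stretch between Psmb9 and Tap1 has the GC box GGGCGG at 55 bases and CCAAT at 8 bases before Psmb9.

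Of the 48 members, 40 were matched to a promoter, and the motifs were counted in the 250 bases before each start. The GC box was in 22 of the 40 (55.0%), against 32.9% of 27025 gene starts. CCAAT was in 14 (34.5% of all starts), the ARE-type motif in 5 (12.5% against 10.1%), TATAAA in 4 (13.0% of all starts), the IRF-type in 3 (7.5% against 3.0%) and the GAS-type in 2 (5.0% against 7.2%). The NF-kB-type motif (GGGA, any base, TTTCC) was in 0 members and 0.3% of starts. These are letter matches, not measured sites.

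Gene-span reads per library ran from 7883989 to 34925667. CPM below are read counts as a rate of the library's total, scaled by TMM (a factor that centres most genes) over the 40 libraries. In 9 libraries, 4524 widely expressed genes scattered widely around the median library (1.41 to 3.49 on the log2 scale, against 0.52 to 1.28 in the others): all 3 ABC wt, ABC 1Mek2 replicates 1 and 2, MarginalZone wt replicate 3 and all 3 MarginalZone 1Mek2. These are called uneven. Follicular wt replicate 4 and Follicular 1Mek2 replicate 2 stood apart from the other 6 Follicular libraries. An index of 200 non-member genes on each side, taken from that split, put 21 libraries with this pair, among them all Immature and GC libraries (type 1), and 19 with the rest (type 2). The index is from the values, not from the labels. By marker genes, the summed GC, MarginalZone and Plasma lists had their highest medians in the subsets so labelled. ABC markers ran from 3883 to 6863 CPM in ABC wt but from 237 to 4590 in ABC 1Mek2. The Immature list did not set Immature cells apart, at 50.1 to 68.7 CPM in Immature wt against 268 to 399 in ABC wt, nor did the Follicular list, at 1162 to 3113 CPM in Follicular wt against 2000 to 2066 in MarginalZone wt. Ms4a1, a B cell marker, was at 0 in every library, while 5 of 6 pan-B markers were detected throughout.

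Members differed widely in level. Psmb8 had the highest mean over 40 libraries, 1417 TPM, followed by Psmb6 with 975, the structural core subunit Psmb3 with 816 and the activator subunit Psme2 with 671 TPM. Psmb10 had 424 TPM and Psmb9 had 302 TPM. The constitutive partners Psmb7 and Psmb5 were lower, at 141 and 97.9 TPM. At the bottom stood Psme4, a large activator best known from testis, with 13.2 TPM, and Psma8, a testis alpha subunit, with 0.788 TPM.

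The 3 immunoproteasome genes together gave most of the catalytic transcripts in nearly every library. Their share of the summed TPM of the 6 catalytic genes was 68.0 ± 0.49% (SD, n = 3) in Immature wt and 68.2 ± 1.86% (n = 3) in Immature 1Mek2. It was 68.9 ± 2.38% and 67.2 ± 1.99% in GC (n = 4 each), 61.1 ± 4.82% and 65.8 ± 7.79% in Follicular (n = 4 each), and 65.3 ± 4.79% and 62.8 ± 2.08% in Plasma (n = 3 each). In MarginalZone it was 58.1 ± 19.2% and 59.6 ± 9.27%, and in ABC 36.9 ± 39.9% and 63.4 ± 7.85% (n = 3 each), with ABC wt libraries from 1.8 to 80.2%. Between genotypes the shares overlapped in every subset. The split among pairs was uneven: on the log2 scale of TPM, Psmb8 over Psmb5 was 3.60 ± 0.15 in Follicular wt, whereas Psmb9 over Psmb6 was -2.21 ± 0.35 (SD, n = 4). Psmb10 over Psmb7 was 2.58 ± 1.22 in Follicular wt, 0.95 ± 0.08 in Immature wt (n = 3) and 0.38 ± 0.61 in GC wt (n = 4). Within every group that held both library types, this ratio was lower in type 1. Follicular wt replicate 4, of type 1, was at 0.77, against 2.99 to 3.46 in the other Follicular wt libraries. As all Immature and GC libraries were of type 1, subset and library type cannot be told apart here.

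**Figure D1:**
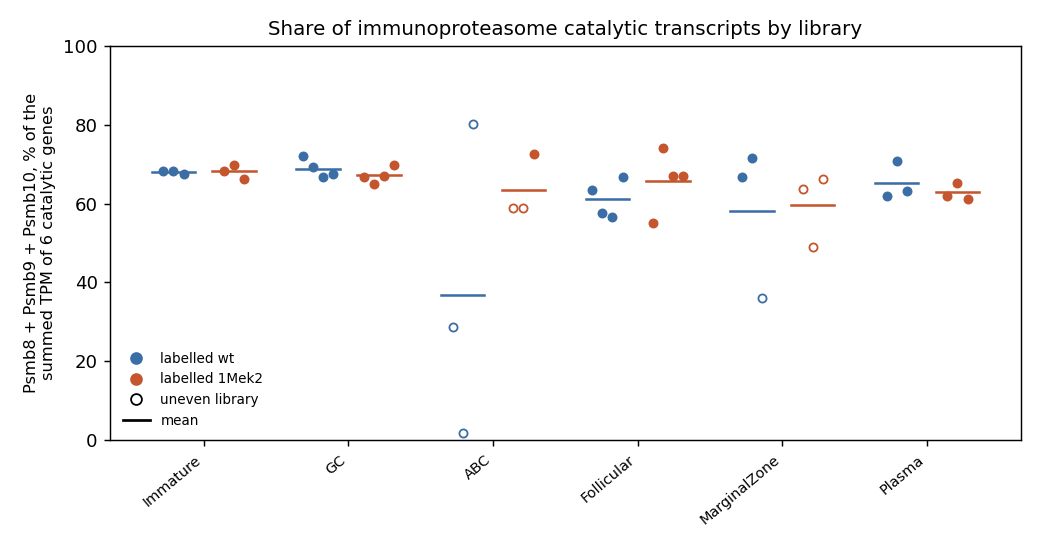
Share of Psmb8, Psmb9 and Psmb10 in the summed TPM (y axis, percent) of the 6 catalytic genes, one point per library by subset and genotype label, with the group mean as a line and uneven libraries as open points. Immature and GC libraries lie close together around 68%, and the ABC wt libraries spread from 1.8 to 80.2%.

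Averaged over the 6 subsets, 16 of 47 members were higher in libraries labelled 1Mek2 and 0 were lower (limma-voom with the animal as a random block, Benjamini-Hochberg adjusted p under 0.05 over all genes). Among all 25181 genes tested, 4.63% were called higher and 1.36% lower. The members' median log2 fold change was 0.61, against -0.12 over all genes, and 41 of 47 were positive, against 41.7% of all genes. In these bulk samples, fewer cells of a type and less RNA per cell cannot be told apart. The 3 immunoproteasome genes were all called. Of the other core genes, 3 of 4 structural beta, 1 of 3 constitutive catalytic and 1 of 8 alpha genes were called. In the regulatory particle it was 1 of 6 ATPases, 1 of 3 other base genes and 2 of 8 lid genes, and outside it 1 of 3 base chaperones, 1 of 4 activators, 0 of 1 inhibitors and 2 of 4 core chaperones.

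The average depended on which libraries were in it. Without ABC 7 members were called (6 of the 16; 1.96% of all genes higher), and without ABC and MarginalZone, which hold all uneven libraries, 13 were called (10 of the 16; 1.9% of all genes higher). Leaving out every replicate 1 left Psmb6 and Psmb8 only, while leaving out replicate 2, 3 or 4 left 18, 12 or 16. Immature and GC alone gave 0 calls with a median of 0.72. A term for library type gave 27 calls, all 16 among them (8.73% of all genes higher), and exon reads in place of gene-span reads gave 16, of which 14 were shared. Without the 3 animals with reads of the Y-linked gene Ddx3y (a wt and a pair labelled 1Mek2) 11 were called. Where no share of all genes stands beside a count here, it is not reported, and the count cannot be set against all genes.

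**Figure D2:**
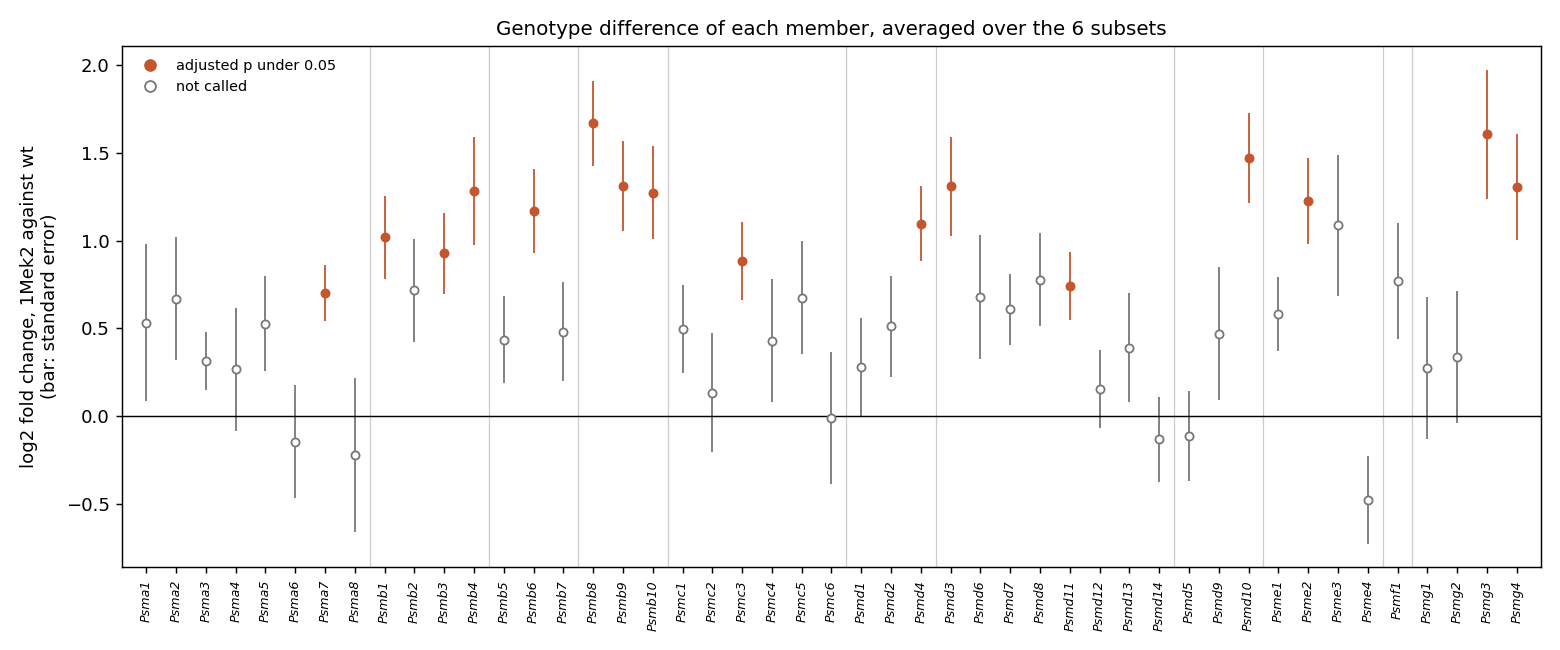
Log2 fold change of each tested member, libraries labelled 1Mek2 against wt, averaged over 6 subsets (y axis; bars are standard errors), with members ordered by role and grey lines between roles. Filled points are the 16 called members, all above 0, from 0.70 (Psma7) to 1.67 (Psmb8).

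Among the catalytic genes, Psmb8 (GRCm39 chr17:34417169-34420428, plus strand) had the largest average difference, 1.67 ± 0.24 (SE; adjusted p = 2.35e-05). In Follicular cells its CPM was 564, 545, 440 and 825 in wt replicates 1 to 4 and 1824, 1229, 969 and 980 in those labelled 1Mek2. Every 1Mek2 library lay above every wt library there, as did 4.86% of all genes. In Plasma it was 646, 587 and 572 in wt and 1057, 2056 and 1325 CPM in 1Mek2, again without overlap (13.2% of all genes). In TPM, Plasma overlapped (722 to 1133 against 1067 to 1098), while Follicular did not (1151 to 1556 against 1840 to 2348). Immature wt had 575, 377 and 432 CPM and Immature 1Mek2 585, 840 and 732, which touched: they overlapped when scaled within the subset. GC overlapped, with 427, 656, 1023 and 732 CPM in wt and 872, 1209, 1327 and 696 in 1Mek2. ABC wt had 6.67, 4.89 and 167 CPM against 1905, 978 and 1081 in 1Mek2, the widest gap of any subset, with all libraries but ABC 1Mek2 replicate 3 (1081 CPM) uneven. MarginalZone overlapped, with 500, 561 and 98.1 against 711, 243 and 1028 CPM. Without ABC the average for Psmb8 was 0.88 (adjusted p = 0.0132), and without ABC and MarginalZone 0.81 (adjusted p = 0.00271), both by limma-voom. Among Follicular libraries of type 1 it was 825 CPM in the wt and 1229 in the 1Mek2 library.

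Psmb9 rose by 1.31 ± 0.26 on average (adjusted p = 0.000974). It was 115, 137, 111 and 141 CPM in Follicular wt and 265, 239, 322 and 344 in Follicular 1Mek2, with no overlap. Immature wt libraries had 94.5, 90.8 and 87.4 CPM, below the 151, 221 and 191 of Immature 1Mek2. Plasma had 127, 62.2 and 137 in wt and 258, 357 and 314 CPM in 1Mek2. ABC was also split, at 3.73, 80.0 and 89.8 against 200, 357 and 275 CPM, whereas GC (99.2 to 219 against 98.3 to 340) and MarginalZone (61.5 to 159 against 63.3 to 379) overlapped. Its average was 1.01 without ABC (adjusted p = 0.0118) and 0.99 without ABC and MarginalZone (adjusted p = 0.00236).

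Psmb10 (chr8:106662360-106665024) rose by 1.27 ± 0.27 (adjusted p = 0.0019), but not alike over the subsets. Immature libraries overlapped, with 134, 88.4 and 113 CPM in wt and 110, 140 and 118 in 1Mek2. GC libraries also overlapped. Follicular wt had 248, 252, 232 and 200 CPM and Follicular 1Mek2 822, 331, 362 and 372. Plasma had 162, 213 and 144 against 265, 254 and 271 CPM, MarginalZone 184, 127 and 26.4 against 645, 270 and 487, and ABC 134, 6.84 and 109 against 1218, 521 and 277, each without overlap. In TPM, MarginalZone (60.6 to 476 against 530 to 1030) and ABC (17.7 to 328 against 457 to 1384) were without overlap too. Follicular (362 to 599 against 492 to 1015 TPM) and Plasma (174 to 392 against 129 to 265 TPM) overlapped. Immature 1Mek2 was lower without overlap, at 234 to 313 TPM against 333 to 348 in wt. Without ABC its average was 0.89 and still called (limma-voom adjusted p = 0.0279). Without ABC and MarginalZone it was 0.46 (limma-voom adjusted p = 0.196), and the call was lost.

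Of the constitutive subunits only Psmb6, which cuts after acidic residues, was called, with 1.17 ± 0.24 (adjusted p = 0.00164). Plasma had 368, 258 and 299 CPM in wt and 750, 971 and 885 in 1Mek2, clear of each other. Follicular overlapped, with 416, 543, 484 and 375 against 2023, 409, 628 and 641 CPM, the first of the 1Mek2 libraries standing far above the rest. Within library types it did not overlap, at 416 to 543 against 628 to 2023 CPM in type 2. Type 1 had 1 library of each genotype, at 375 and 409 CPM. The average of Psmb6 stayed at 0.82 without ABC and MarginalZone (adjusted p = 0.0236). Psmb5 had 0.44 ± 0.25 (adjusted p = 0.348) and Psmb7 0.48 ± 0.28 (adjusted p = 0.362). Psmb5 nonetheless did not overlap in Plasma (39.9, 31.4 and 43.5 against 54.4, 103 and 89.9 CPM) or Follicular (27.1 to 43.3 against 48.3 to 68.8 CPM). In TPM, Psmb5 overlapped in Plasma (61.4 to 82.8 against 76.2 to 101.3) but not in Follicular (97.7 to 115.9 against 124.5 to 151.2). Whether Psmb8 and Psmb5 differed from each other in their response was not tested.

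**Figure D3:**
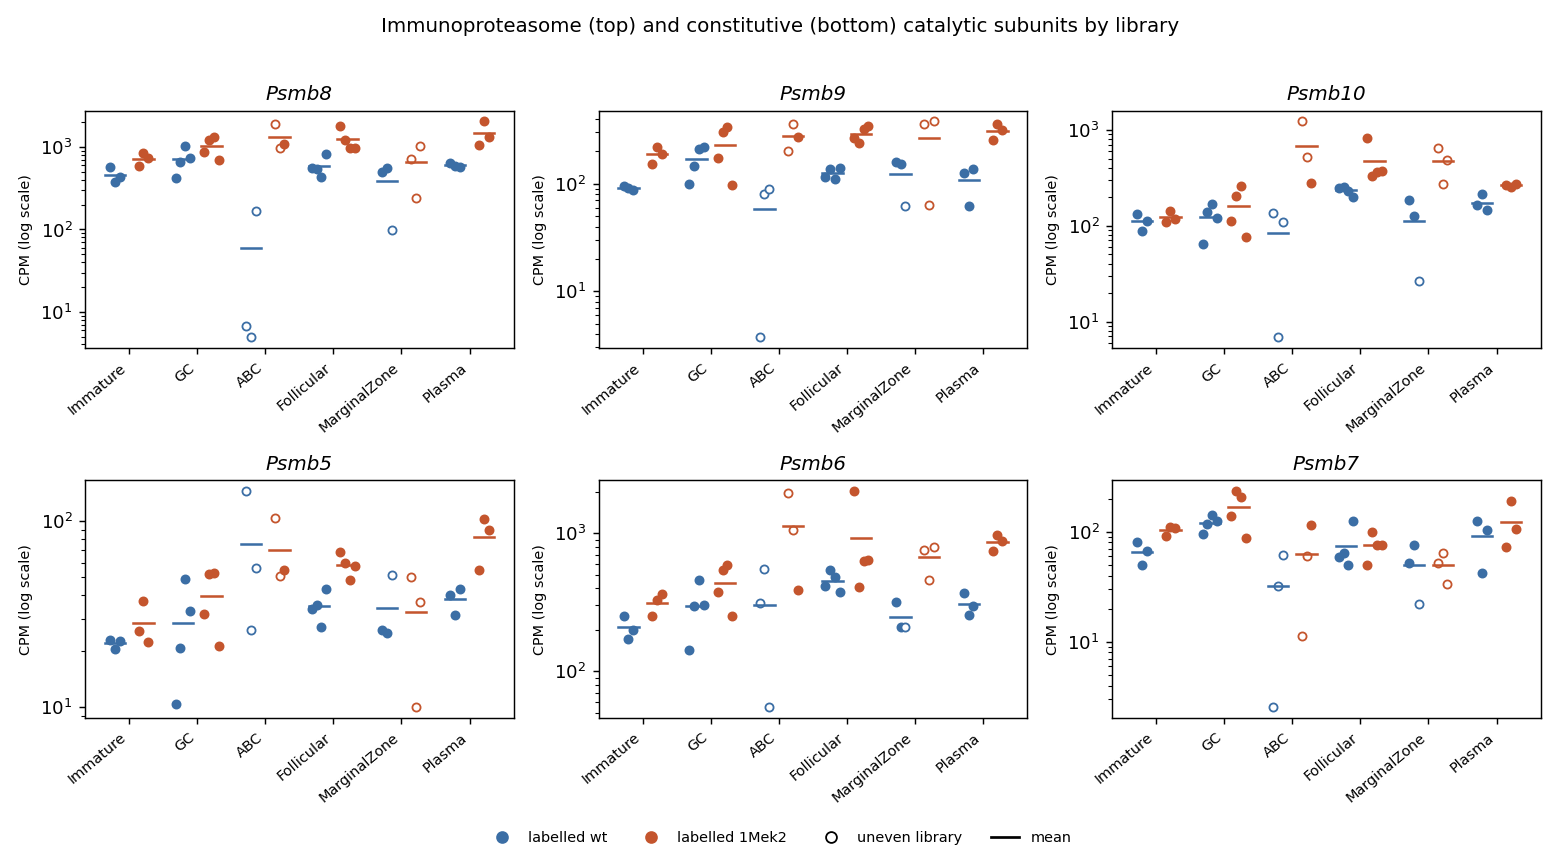
CPM (log axis) of the immunoproteasome genes (top) and their constitutive counterparts (bottom) by subset, one point per library, blue for wt and orange for 1Mek2, open for uneven libraries, with group means as lines. In Follicular and Plasma cells the orange points of Psmb8, Psmb9 and Psmb10 lie above all blue ones, while those of Psmb7 overlap.

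Among the activators, which open the core without ubiquitin, Psme2 rose by 1.23 ± 0.25 (adjusted p = 0.00126). It had 235, 250, 214 and 300 CPM in Follicular wt and 553, 427, 450 and 473 in Follicular 1Mek2. Plasma had 279, 259 and 313 against 442, 659 and 526, Immature 208, 182 and 204 against 241, 330 and 316, and ABC 2.84, 18.4 and 76.2 against 633, 275 and 426 CPM. The groups did not overlap in these 4 subsets, while in MarginalZone 1Mek2 lay between 87.1 and 212 CPM against 30.5 to 277 in wt. Without ABC the average of Psme2 was 0.61 (limma-voom adjusted p = 0.147) and the call was lost. Without ABC and MarginalZone it was 0.64 (limma-voom adjusted p = 0.0176), which was called. Psme1, its partner in the same ring, had 0.58 ± 0.21 (adjusted p = 0.0974). Psme3, a nuclear activator, had 1.09 ± 0.40 (adjusted p = 0.105), with Immature 1Mek2 values from 71.7 to 282 CPM against 24.8 to 138 in wt. Psme4 had -0.48 ± 0.25 (adjusted p = 0.293), and its exon reads were 0.448 of its gene-span reads. Psmf1, an inhibitor of the core, had 0.77 ± 0.33 (adjusted p = 0.173).

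The structural beta genes, which form the inner rings without cutting, were called for Psmb4 (1.28 ± 0.31, adjusted p = 0.00696), Psmb1 (1.02 ± 0.24, adjusted p = 0.00515) and Psmb3 (0.93 ± 0.23, adjusted p = 0.00918), and Psmb2 had 0.72 ± 0.29 (adjusted p = 0.148). Without ABC these 3 calls were lost, at 0.57 for Psmb4 (adjusted p = 0.354), 0.57 for Psmb1 (adjusted p = 0.157) and 0.62 for Psmb3 (adjusted p = 0.103). Without ABC and MarginalZone all 3 were called by limma-voom. Psmb4 was then at 0.74 (adjusted p = 0.0398), Psmb1 at 0.71 (adjusted p = 0.0272) and Psmb3 at 0.69 (adjusted p = 0.021). Psmb3 in Plasma was 285, 193 and 262 CPM in wt and 397, 598 and 516 in 1Mek2. In Follicular it was 262, 345, 249 and 320 against 628, 367, 453 and 441 CPM. Neither pair of groups overlapped in CPM. Both did in TPM, at 502.5 to 592.8 against 523.3 to 681.6 in Plasma and 970 to 1263 against 925.7 to 1407 in Follicular. Of the alpha ring, Psma7 alone was called (0.70 ± 0.16, adjusted p = 0.00386), with 357, 390, 399 and 392 CPM in Follicular wt against 811, 507, 594 and 585 in 1Mek2, and with overlap, scaled within each subset, in Immature, GC, ABC and MarginalZone. It was still called without ABC (0.76, adjusted p = 0.0109). In TPM its Follicular libraries overlapped (559.1 to 789.4 against 600 to 869.5). The other alpha genes ran from -0.22 (Psma8) to 0.67 (Psma2) and were not called.

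In the regulatory particle, Psmd4, a ubiquitin receptor of the base, rose by 1.10 ± 0.21 (adjusted p = 0.000937). It had 295, 277, 236 and 313 CPM in Follicular wt and 824, 463, 400 and 413 in 1Mek2, and 1.47, 83.4 and 26.2 in ABC wt against 226, 147 and 345. Both were without overlap, while MarginalZone overlapped at 240 to 285 against 178 to 334 CPM. The lid genes Psmd3 (1.31 ± 0.28, adjusted p = 0.00263) and Psmd11 (0.74 ± 0.19, adjusted p = 0.014) and the ATPase Psmc3 (0.88 ± 0.22, adjusted p = 0.0108) were also called. Without ABC, Psmd3 was still called (0.87, adjusted p = 0.0279), while Psmd4 (0.57, adjusted p = 0.0586), Psmc3 (0.64, adjusted p = 0.0869) and Psmd11 (0.53, adjusted p = 0.143) were not. Without ABC and MarginalZone, limma-voom called Psmd3 (0.77, adjusted p = 0.0406) and Psmd4 (0.6, adjusted p = 0.0326). It did not call Psmc3 (0.66, adjusted p = 0.05255) or Psmd11 (0.39, adjusted p = 0.277). Psmd14, the lid enzyme that cleaves ubiquitin chains from the substrate, had -0.13 ± 0.24 (adjusted p = 0.82).

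The assembly chaperones gave the clearest dependence on a single subset. Psmd10, also known as gankyrin, a chaperone of the base (chrX:139849174-139857460), had an average of 1.47 ± 0.26 (adjusted p = 0.000235). In ABC wt it was at 0.098, 0.0977 and 0.59 CPM, from 1, 1 and 9 reads, and in ABC 1Mek2 at 70.8, 45.6 and 79.2, from 1105, 795 and 2205 reads. With so few reads in wt, fitted fold changes in ABC depend on the count added before taking logs. In Follicular it was 29.2, 34.8, 24.8 and 74.8 against 47.1, 77.9, 40.5 and 45.8 CPM, which overlapped, and GC, Immature, MarginalZone and Plasma overlapped too. Split by subset and library type, Psmd10 was higher in 1Mek2 without overlap in 5 of 8 sets, some with 1 library of a genotype. Follicular of type 2 had 24.8 to 34.8 against 40.5 to 47.1 CPM, and type 1 had 74.8 against 77.9. The genotype difference of Psmd10 varied between subsets (edgeR interaction over 12 groups, adjusted p = 2.08e-05), as it did for Psmg3, a core chaperone, at adjusted p = 0.0483. These were 2 of 47 members (2% of all genes). Psmg3 had 0.098, 0.0977 and 2.16 CPM in ABC wt and 43.5, 83.3 and 35.3 in ABC 1Mek2. Without ABC the average of Psmd10 was 0.19 (adjusted p = 0.843). Psmg4 (1.30 ± 0.30, adjusted p = 0.00537) and Psmg3 (1.61 ± 0.37, adjusted p = 0.00472) were called on average as well, and without ABC were not, at 0.62 (adjusted p = 0.21) and 0.55 (adjusted p = 0.574).

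Within single subsets the tests called almost no member. Shares of all genes below are of adjusted calls. Counts at an unadjusted p or by DESeq2 have no such share beside them, so they cannot be set against all genes. In Immature cells 1 of 47 was called higher (edgeR quasi-likelihood F test; 0.81% of all genes higher, 0.123% lower): Psmg1, a core chaperone, with 19.3, 11.5 and 15.0 CPM in wt and 42.7, 53.5 and 62.1 in 1Mek2, a difference of 1.83 ± 0.46 (adjusted p = 0.0222). The groups lay far apart. In Immature cells 12 members were higher without overlap (6.91% of all genes) and 45 of 47 were positive (42.9% of all genes). Sums of 8 cell division genes moved the same way, from 105 to 667 CPM in wt to 960 to 1693 in 1Mek2. So did 6 Plasma markers, from 277 to 992 CPM to 1756 to 6141, and 6 GC markers, from 145 to 490 CPM to 890 to 1221. Sums over 18 long neuronal genes, a gauge of background reads, were 728 to 1797 CPM in wt and 301 to 1076 in 1Mek2. None of each list was at 0 throughout, and their part in the result was not tested. With a term for these background reads Psmg1 had 1.55 and 0 members were called.

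In GC 0 of 47 members were called (0.018% of all genes higher, 0.036% lower), with 7 at an unadjusted p under 0.05 and DESeq2 giving 0 as well. The smallest p belonged to Psmc3 (0.91 ± 0.32), Psmc1 (0.82 ± 0.32) and Psmd12 (0.75 ± 0.31), each at an adjusted p of 0.409. Psmc3 libraries overlapped, with 171, 164, 270 and 216 CPM in wt and 315, 520, 533 and 207 in 1Mek2. Although 45 of 47 members were positive (46.4% of all genes), only 3 did not overlap (4.66% of all genes), and GC 1Mek2 replicate 4 was low for most: it had 98.3 CPM of Psmb9, 76.5 of Psmb10 and 164 of Psme2. The summed cell division genes ran from 497 to 3390 CPM in GC 1Mek2, against 1537 to 2299 in wt.

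Follicular cells had 0 of 47 members called (0% of all genes), with 17 at an unadjusted p under 0.05 and 2 by DESeq2. The smallest p were for Psmb9 (1.32 ± 0.27, adjusted p = 0.391), Psme2 (1.04 ± 0.27, adjusted p = 0.42) and Psmb8 (1.19 ± 0.35, adjusted p = 0.42). Here 13 members lay higher without overlap (4.86% of all genes) and 44 of 47 were positive (51.4% of all genes). With the library type as a term, a single shift shared by both genotypes, Psmb9 and Psme2 were called (0.849% of all genes higher). Summed markers were higher with the 1Mek2 label too, with overlap. The pan-B sum was 6807 to 9147 CPM in wt and 8942 to 12170 in 1Mek2, that of 8 T cell markers 54.1 to 139 and 131 to 410, that of 5 NK cell markers 6.6 to 24.2 and 21.8 to 86.0, and that of 7 neutrophil markers 0.18 to 1.7 and 1.3 to 45.4 CPM. Trac was at 0 in both groups and Elane in wt. Their part in the result was not tested.

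In Plasma cells 0 of 47 were called (0.0202% of all genes higher, 0.0403% lower), with 11 at an unadjusted p under 0.05 and 4 by DESeq2. Psmb6 (1.50 ± 0.32, adjusted p = 0.0895), Psmb9 (1.51 ± 0.39, adjusted p = 0.127) and Psma7 (1.13 ± 0.31, adjusted p = 0.143) had the smallest p. Psma7 was 329, 347 and 387 CPM in wt and 662, 852 and 812 in 1Mek2. In all, 18 members lay higher without overlap (13.2% of all genes), and the type term called 13 of 47 (4.24% of all genes higher): Psma2, Psma5, Psma7, Psmb1 to Psmb6, Psmb8, Psmb9, Psmd8 and Psme2. In TPM, which differ in scaling and count exon reads only, the members' sum was not higher, at 8048 to 11382 in Plasma wt and 7858 to 8639 in 1Mek2. Psmb6 (431 to 519 against 556 to 837 TPM) and Psmb9 (81.5 to 158 against 172 to 231 TPM) were higher without overlap in TPM as well. Psma7, Psmb3, Psmb5, Psmb8 and Psmb10 overlapped in TPM. Markers of other cells were high in these libraries in both genotypes. The sum of 8 T cell markers was 1965 to 3664 CPM in wt and 1847 to 1985 in 1Mek2, with Trac at 0, that of 7 neutrophil markers 1489 to 4074 and 2764 to 7874, and the pan-B sum 446 to 825 and 1804 to 2454. Plasma markers ran from 6500 to 16120 and from 12980 to 28710 CPM. Their part in the result was not tested.

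ABC and MarginalZone each had 0 of 47 called (0% of all genes in both), with 14 and 5 at an unadjusted p under 0.05, and DESeq2 calling 5 and 0. In ABC, Psmd10 (7.99 ± 1.86) and Psmb8 (4.67 ± 1.15) had adjusted p = 0.119, and Psme2 (3.94 ± 1.13) had 0.133. In ABC 15 members lay higher without overlap (15.6% of all genes). ABC libraries also held markers of plasmacytoid dendritic cells, 8941 to 13170 CPM in wt and 2011 to 13170 in 1Mek2, and 856 to 2958 against 23.1 to 661 CPM over the long neuronal genes, whose part was not tested. MarginalZone was the subset with a negative median, -0.37 (0.02 over all genes), and 16 of 47 positive (50.8% of all genes). Psmb6 (1.47 ± 0.45) and Psmb10 (2.05 ± 0.67, both adjusted p = 0.519) and Psmc6 (-2.33 ± 0.90, adjusted p = 0.529) had the smallest p there, and 4 members lay higher without overlap (7.25% of all genes).

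**Figure D4:**
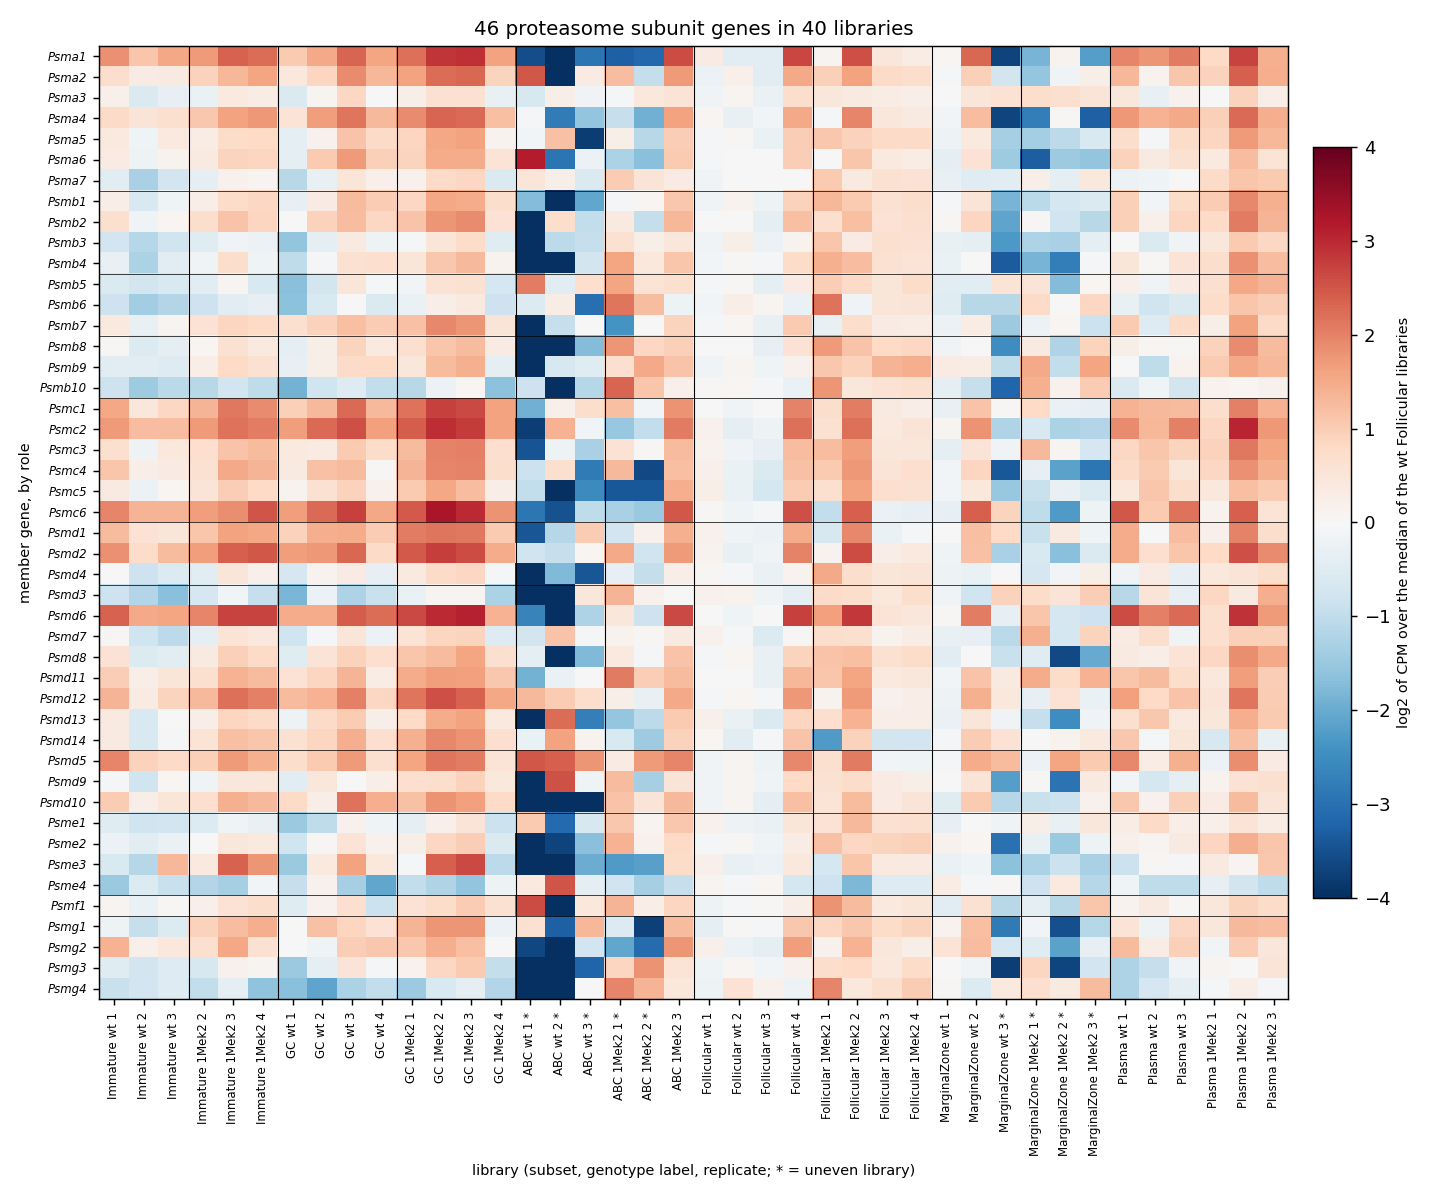
Log2 of each library's CPM over the median of the Follicular wt libraries (colour, cut at 4 either way, with 0.5 CPM added) for 46 members by role (rows) and 40 libraries by subset, genotype label and replicate (columns; an asterisk marks uneven libraries). Dark blue cells gather in the uneven ABC and MarginalZone libraries, and Follicular wt replicate 4 and Follicular 1Mek2 replicate 2 resemble the Immature and GC columns.

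The uneven libraries lacked members one by one rather than all together. Of 46 members, 21, 20 and 6 stood more than 8-fold below the Follicular wt median in the 3 ABC wt libraries, and 2, 5 and 0 in ABC 1Mek2. It was 7 in MarginalZone wt replicate 3, 1, 4 and 1 in MarginalZone 1Mek2, and 0 in every other library. Psma6 shows the scatter: 758, 10.8 and 72.6 CPM in ABC wt, against 82.1 to 171 in Follicular wt. Psmf1 had 451, 1.37 and 97.2 CPM in the same libraries.

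Each subset was then set against Follicular cells of its genotype. All these comparisons share the Follicular libraries, so their results are not independent. In wt, 1 of 47 members was called higher in Immature (32.3% of all genes higher, 7.15% lower), Psma8, by 3.71 ± 0.76 (adjusted p = 0.00159). It had 5.53, 6.18 and 3.58 CPM against 0.552, 0.109, 0.624 and 0.817, low values without overlap, and only 0.295 of its gene-span reads fell on exons. The long neuronal genes summed to 728 to 1797 CPM in Immature wt and 31.6 to 78.8 in Follicular wt, and 0 members were called in exon reads. Psma8 was likewise the only call in Plasma wt (2.94 ± 0.88, adjusted p = 0.0458; 12.2% of all genes higher, 5.53% lower), with 6.25, 1.56 and 2.97 CPM. In GC wt (14.6% of all genes higher, 10.5% lower) Psma4, an alpha subunit, was higher by 1.25 ± 0.43 (adjusted p = 0.047) and Psmg4 lower by 1.32 on the log2 scale (log2 fold change -1.32 ± 0.43, adjusted p = 0.0381). Psmg4 was 9.21, 6.78, 12.4 and 15.2 CPM in GC and 26.9, 46.0, 34.6 and 27.0 in Follicular, without overlap. Psma4 was 64.2, 139, 193 and 107 against 46.1, 35.3, 40.5 and 124 CPM, where the overlap came from Follicular wt replicate 4.

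These counts changed with that single library. It was the only Follicular wt library of type 1. Without it, subset and library type cannot be told apart in Immature and GC. Without Follicular wt replicate 4, 13 members were higher and 9 lower in Immature (34.4% and 24.7% of all genes), 19 and 2 in GC (24.4% and 14.2%), and 21 and 0 in Plasma (19.7% and 10.9%). With it as the only Follicular library the spread came from the other group alone, so calls say little; 0 were called in each (32.6%, 1.19% and 1.73% of all genes higher, and 0.956%, 0.434% and 0.338% lower), and the medians were -0.56, -0.40 and -0.25, against 0.04, 0.75 and 0.88 without it. Psmc6, an ATPase, had 27.9, 24.1 and 26.1 CPM in the other Follicular wt libraries and 164 in this one, within the 79.7 to 182 of GC wt. Psma1 had 62.1, 35.9, 37.2 and 317 CPM.

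In ABC wt, 4 of 47 were lower (8.3% of all genes lower, 11.9% higher): Psmd10 (-7.10 ± 1.31), Psma1 (-4.83 ± 1.26), Psmg3 (-4.82 ± 1.34) and Psme2 (-2.86 ± 0.93), with adjusted p from 0.00665 to 0.0495 by edgeR. Replicates 1 to 3 of these groups came from the same 3 animals, and with that replicate block Psma1 (-3.64, adjusted p = 0.103) and Psmg3 (-5.93, adjusted p = 0.0503) were no longer called by edgeR. As all ABC wt libraries were uneven, no value could be had without them, and the folds of Psmd10 and Psmg3 rest on the few reads given above (1, 1 and 33 for Psmg3). MarginalZone wt had 0 of 47 called (0.272% of all genes higher, 0.068% lower), with 2 at an unadjusted p under 0.05 and DESeq2 calling 0.

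In libraries labelled 1Mek2, 7 of 47 members were lower in Immature than in Follicular (12.3% of all genes lower, 18.6% higher), led by Psmg4 (-2.05 ± 0.49), Psmb10 (-1.90 ± 0.41), Psmb6 (-1.52 ± 0.52) and Psmd3 (-1.15 ± 0.33). Psmb10 had 110, 140 and 118 CPM in Immature against 331 to 822 in Follicular, without overlap. In GC, 5 were higher and 2 lower (16.3% and 14.6% of all genes): Psmd14 (1.82 ± 0.58), Psmd12 (1.46 ± 0.43), Psmc2 (1.38 ± 0.48) and Psmc1 (1.31 ± 0.46) were the 4 highest, and Psmg4 (-2.03 ± 0.43) and Psmb10 (-1.55 ± 0.45) the lower ones. Without Follicular 1Mek2 replicate 2 the counts were 13 higher and 10 lower in Immature (25.9% and 17.6% of all genes), 15 and 3 in GC (25.4% and 17.7%) and 6 and 0 in Plasma (17.1% and 9.44%). This library was the only Follicular 1Mek2 library of type 1, so without it subset and library type cannot be told apart in Immature and GC. With it as the only Follicular library the members' medians were -0.41, 0.0 and -0.24 in Immature, GC and Plasma, against 0.29, 0.52 and 0.53 without it.

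MarginalZone 1Mek2 had 3 of 47 lower (1.39% of all genes lower, 1.4% higher): Psma6 (-2.49 ± 0.57), Psma5 (-1.93 ± 0.41) and Psmb1 (-1.79 ± 0.39). Psmb1 was 85.9, 112 and 123 CPM against 282 to 462, and 22 members lay lower without overlap (12.7% of all genes), with every MarginalZone 1Mek2 library uneven. ABC 1Mek2 had 0 of 47 called (0% of all genes), with 0 at an unadjusted p under 0.05 and 0 by DESeq2. Plasma 1Mek2 had 0 of 47 called (13.9% of all genes higher, 5.95% lower), with 1 at an unadjusted p under 0.05 and 0 by DESeq2.

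**Figure D5:**
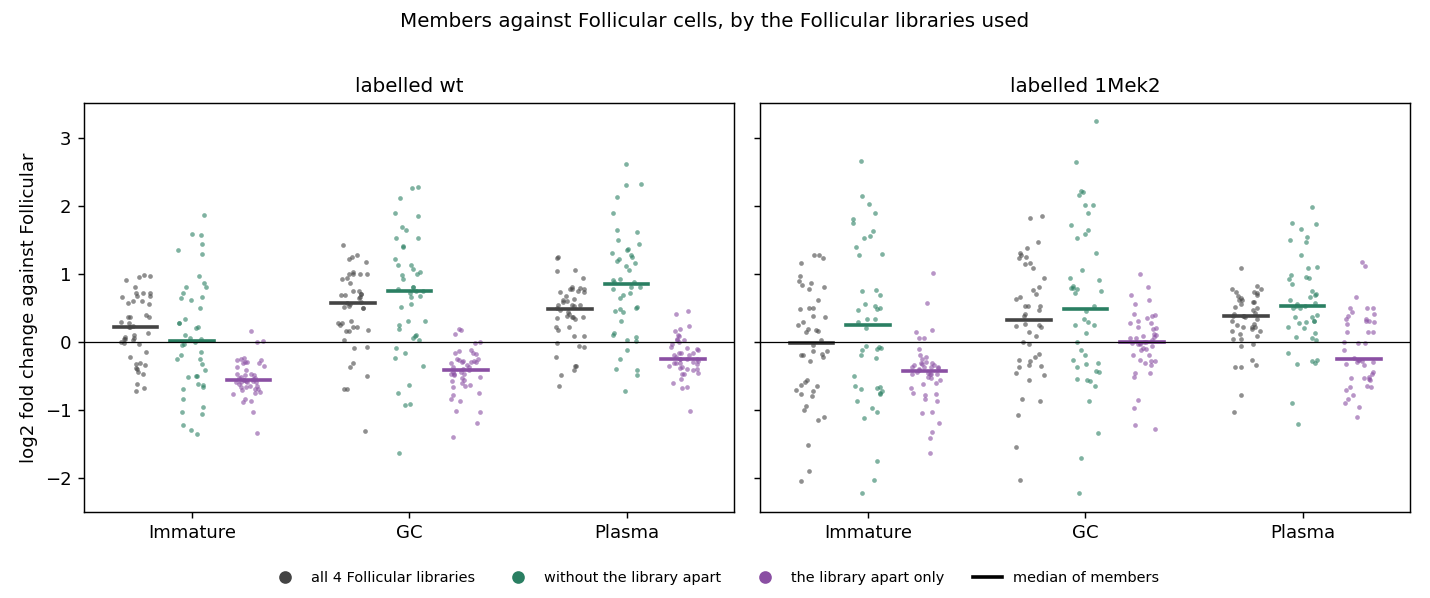
Log2 fold change against Follicular (y axis) of the tested members other than Psma8 in Immature, GC and Plasma cells, wt left and 1Mek2 right, with all 4 Follicular libraries, without the library that stands apart, and with that library only; lines are medians. In wt the points lie mostly below 0 against the library that stands apart; without it they lie mostly above 0 in GC (38 of 47 members, Psma8 included) and Plasma (41 of 47) and on both sides of 0 in Immature (24 of 47 above).

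Other genes of the pathway were compared by the same fits. Of 21 tested partners outside the Psm names, 2 were higher on the genotype average, where 4.63% of all genes were higher and 1.36% lower. They were Adrm1, the ubiquitin receptor of the base (1.36 ± 0.23), and Pomp, the chaperone of core maturation (0.74 ± 0.17). Among the ubiquitin genes, Ubb (0.88 ± 0.16) and Rps27a (0.70 ± 0.21) were higher, and the activating enzyme Uba6 was lower (-0.80 ± 0.24). Of 14 class I genes, 5 were higher and 0 lower (4.63% and 1.36% of all genes). The 5 were H2-D1 (0.89 ± 0.21), Tapbp (0.89 ± 0.23), H2-K1 (0.82 ± 0.20), Irf1 (0.71 ± 0.19) and Tap1 (0.61 ± 0.19). Averages of these pathway genes without ABC are not reported here. The medians of the partner and class I genes were 0.08 and 0.50, against 0.61 for the proteasome members. The interaction called Adrm1 (adjusted p = 0.0061) and H2-K1 (adjusted p = 0.0417). Within single subsets the only one called by genotype was Rad23b, a ubiquitin shuttle, in Immature (1.53 ± 0.41).

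Against Follicular, Irf1, a regulator of immunoproteasome genes, was lower in Immature wt (-1.68 ± 0.32), GC wt (-2.06 ± 0.36), Immature 1Mek2 (-2.03 ± 0.34) and GC 1Mek2 (-2.51 ± 0.36). In ABC wt, Adrm1 was lower (-4.15 ± 0.80) and Ddi2, a protease acting on Nfe2l1, was higher (3.53 ± 0.60). Psmb8 and Psmb9 were not called in any subset against Follicular, whereas Psmb10 was lower in Immature and GC cells labelled 1Mek2.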

How the data were processed

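The authors deposited raw read counts per gene and TPM values for the same libraries. Per the submitters' processing notes the tools were Trim Galore 0.6.5, STAR 2.7.11a and featureCounts 2.0.3 with the build GRCm39; strand and overlap settings are not given in the sources used here. In the count table, 50760 of 50763 genes are a single interval from start to end, so counts include introns. The deposited TPM, multiplied by exonic length, gave whole multiples of a constant per library for 100% of values (tolerance 0.02), which recovered exon reads (7902640 to 29204625 per library). TPM were used for levels between genes and ratios, with 1 TPM added for log2 ratios. A further 6 TPM entries name no gene and were left out.

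Comparisons of groups used edgeR 4.0.16 (TMM, filterByExpr, robust quasi-likelihood F test) on the counts, the genotype average limma-voom (limma 3.58.1, animals entered as a random effect) and the interaction an edgeR test over 12 groups. P-values were two-sided and Benjamini-Hochberg adjusted over all genes tested, with calls under 0.05, and SE were derived from the test statistic. The labels name no cultures or litters; p-values measure the spread between these libraries. Scripts were tested on simulated data. Reads carry no molecular identifiers, so depth covers counting error only.

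The members, the pathway and marker lists and the rule for named genes were chosen with earlier results of these data known. Named were the catalytic, activator and inhibitor genes and the tissue-restricted Psmb11 and Psma8, per subset comparison the 4 called members with the largest change in each direction, per genotype comparison up to 6 called members or the 3 with the smallest p, the 3 called pathway genes with the largest change, and Map2k1 and Map2k2; other names were chosen after their values were seen. Some pathway genes that the rule names are not reported here. The markers covered 7 B cell identities and 7 other cell types, besides division genes and long neuronal genes. Alternatives were DESeq2 1.42.0, RLE scaling, no filter, exon reads, blocks, leaving out libraries, a term for background reads and, chosen after seeing the data, terms or subsets for the library type and the uneven libraries. Replicate numbers pair libraries in ABC against Follicular wt, where they mark the same 3 animals, and in Plasma against Follicular 1Mek2, where deviations of same-numbered libraries correlated in every pair (0.24 to 0.74; 2 of 3 pairs from the same animal). Elsewhere at most 1 of the numbers marks a shared animal. MarginalZone wt, ABC 1Mek2 and MarginalZone 1Mek2 nonetheless shared 2 animals each with Follicular, partly under other numbers. The main edgeR tests, the interaction included, had no term for the animal. Promoters are those of the RefSeq table for GRCm38.p6, whose coordinates were not mixed with those of GRCm39.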

Additional observations from a re-analysis of the deposited data

Results flagged for a closer look

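Levels of 31 members were checked in the 4 groups of 4 libraries, 124 tests in all, for a highest or lowest library far from the other 3 (Dixon's 95% limit). Chance flags about 1 in 20 groups, and 20 were found. Most were the 2 Follicular libraries that stand apart. In Follicular wt replicate 4, Psma1 was at 317.5 CPM (others 35.88 to 62.11), Psma4 at 123.7, Psma5 at 177.5, Psma6 at 171.3, Psmc1 at 290.4, Psmc2 at 230.2, Psmc6 at 163.8 and Psmd12 at 233.1. In Follicular 1Mek2 replicate 2, Psma1 was at 298.0 CPM (others 53.2 to 67.46), Psma4 at 170.3, Psmc1 at 305.1, Psmc2 at 228.2, Psmc6 at 142.6, Psmd12 at 230.9 and Psme1 at 448.2. The genes that stood out in both were Psma1, Psma4, the ATPases Psmc1, Psmc2 and Psmc6 and the lid gene Psmd12; no immunoproteasome gene was among those of either library. In Follicular 1Mek2 replicate 1, Psmb10 was at 822.4 CPM, Psmb6 at 2023.0 and Psmd4 at 824.2. Psmb11 was above 0 in a single library of GC 1Mek2 (replicate 4, 0.05768 CPM) and of Follicular wt (replicate 2, 0.1447 CPM).

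The genotype difference varied between subsets for Psmd10 (adjusted p of the edgeR interaction test 2.08e-05) and Psmg3 (adjusted p = 0.0483), both near 0 in ABC wt.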

How the results depend on the processing

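Counts below are of members called. Unless given above, the share of all genes called in the same fit is not reported here. A count alone therefore does not set the members apart from other genes. Against Follicular in wt, Immature (1 called) gave 4 with RLE scaling, 5 with DESeq2, 10 with no filter, 0 in exon reads and 27 with the replicate block, and 0 with Follicular wt replicate 4 as the only Follicular library. GC (2) gave 1 with no filter, 7 in exon reads, 4 with the replicate block and 0 with that library only, where Psma4 turned to -0.01. ABC (4) gave 8 with DESeq2, no filter or exon reads, 11 with the animal as a random block and 2 with the type term; its replicate block, which pairs the same animals, gave 4, of which 2 were shared. Plasma (1) gave 0 with no filter, 12 with the replicate block and 0 with replicate 4 only. In 1Mek2, Immature (7) gave 12 with no filter, 3 in exon reads, 3 with the replicate block and 2 with Follicular 1Mek2 replicate 2 only; GC (7) gave 12 with the replicate block and 0 with that library only. MarginalZone (3) gave 14 with DESeq2, 15 with no filter, 0 in exon reads, 1 with the replicate block, 7 with the animal as a random block and 0 with the type term, and Plasma (0) 2 with the type term. By genotype, Immature (1) gave 2 with RLE or no filter, 0 in exon reads, 13 with the replicate block and 0 with the background term. ABC (0) gave 5 with DESeq2 and 3 with no filter or limma-voom. Follicular (0) gave 2 with DESeq2 or the type term, MarginalZone (0) 1 with no filter, and Plasma (0) 4 with DESeq2 and 13 with the type term. The interaction (2) gave 4 with RLE, 6 in exon reads and 1 with the replicate block. The average (16) gave 27 with the type term, 25 with it in exon reads, 7 without ABC and 0 with Immature and GC only, and 16 with the replicate block. Under RLE the average's median over all genes went from -0.12 to -0.22. The cause of these shifts was not tested.

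Leaving out single replicates gave, against Follicular in wt, 1 to 22 (Immature), 0 to 21 (GC), 1 to 13 (ABC), 0 to 0 (MarginalZone) and 0 to 21 (Plasma), and in 1Mek2 0 to 23, 1 to 18, 0 to 4, 0 to 3 and 0 to 6 in the same order. By genotype it gave 0 to 5 (Immature), 0 to 0 (GC), 0 to 1 (ABC), 0 to 0 (Follicular, MarginalZone and Plasma), 2 to 18 on average and 1 to 7 for the interaction. Of the single named values, 540 alternatives kept direction and side of the threshold, 139 lost the call, 20 gained it and 1 reversed. The replicate block in Plasma against Follicular 1Mek2 gave 0 members, as without it. In the other comparisons the numbers do not pair the libraries, whose deviations correlated from -0.78 (Follicular by genotype) to 0.57 (MarginalZone wt). The animal block could not be fitted for Plasma wt, Immature 1Mek2 and GC 1Mek2 against Follicular, with 1 shared animal each, and none is shared for Immature and GC wt. Leaving out uneven libraries was possible for MarginalZone wt and ABC 1Mek2 against Follicular only, with 0 members each; the latter leaves 1 ABC library, so its 0 says little, as do counts with a lone Follicular library. Depth limits Psmb11, Psma8 and the ABC wt values of Psmd10 and Psmg3.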
